A study of Rattus norvegicus with 9 samples.

Results

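The early growth response (EGR) transcription factors and their NAB corepressors were followed in the rat line RBL-2H3, basophilic leukemia cells that serve as a mast cell (MC) model. The 6 genes Egr1, Egr2, Egr3, Egr4, Nab1 and Nab2 were matched by symbol among 38490 genes listed. Of these 6 genes, 5 had a value in every sample. Egr4 (gene ID 25129) was listed with no value in any of the 9 samples, so nothing can be said of its level. The 9 samples were RNA libraries in 3 groups of 3. By the labels, the IgE/DNP samples (DNP) were sensitized for 12 h with anti-DNP IgE at 50 ng/mL and then exposed for 4 h to the antigen DNP-HSA at 100 ng/mL. The PF samples had the same sensitization and antigen, with a PF pretreatment of 1 h. Neither the labels nor the study's text say what PF is. One label field gives all PF samples 4 h of antigen, and another gives PF replicates 1, 2 and 3 times of 4, 5 and 6 h. The control samples (Ctrl) are called untreated in one field, while another field gives them the sensitization and antigen, so whether they received IgE is not settled. The labels give the source as peripheral blood, but the cells are an established line, and nothing states that the replicates were separate cultures. The p-values below therefore measure the spread between these samples, which may be technical.

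EGR proteins are zinc finger transcription factors that bind GC-rich sites. Their genes are immediate early genes, switched on without new protein synthesis after receptor stimulation. ERK signaling acts on their promoters through serum response factor (SRF), which binds CArG boxes together with ternary complex factors such as ELK1, and through CREB, which binds cAMP response elements (CREs). In MCs, cross-linking of IgE on the FcεRI receptor by antigen activates ERK. NAB1 and NAB2 do not bind DNA themselves. They bind a conserved domain of EGR1, EGR2 and EGR3, but not of EGR4, and repress their target genes, in part through the CHD4 subunit of the nucleosome remodeling and deacetylase (NuRD) complex. Nab2 is itself a known EGR target in several cell types, which makes it part of a feedback loop.

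Promoter windows are shown first, because the 5 genes with a window differed from one another in the elements they hold. RefSeq windows of 300 bases, from 250 before to 50 after the annotated start, were given for 5 of the 6 genes on the GRCr8 build. The promoter of Egr1, which encodes the best studied EGR factor, is at chr18:26736828-26737127 on the plus strand. That of Egr2, known for its part in myelination and in T cell tolerance, is at chr20:21054392-21054691 on the minus strand. The Egr4 window is at chr4:119607768-119608067 on the minus strand. In these 3 sequences capitals mark CArG boxes and the CRE half-site CGTCA.
Egr1: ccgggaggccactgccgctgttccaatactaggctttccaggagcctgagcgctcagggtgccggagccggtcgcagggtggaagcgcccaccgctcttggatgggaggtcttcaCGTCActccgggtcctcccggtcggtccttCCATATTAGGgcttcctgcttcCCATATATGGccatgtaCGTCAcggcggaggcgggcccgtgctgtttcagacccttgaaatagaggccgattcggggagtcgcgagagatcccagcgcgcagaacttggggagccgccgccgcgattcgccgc
Egr2: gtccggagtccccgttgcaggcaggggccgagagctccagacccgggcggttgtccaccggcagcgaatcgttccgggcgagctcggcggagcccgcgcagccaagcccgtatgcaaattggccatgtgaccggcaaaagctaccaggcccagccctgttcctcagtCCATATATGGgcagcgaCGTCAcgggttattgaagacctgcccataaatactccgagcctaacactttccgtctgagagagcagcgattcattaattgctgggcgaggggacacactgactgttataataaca
Egr4: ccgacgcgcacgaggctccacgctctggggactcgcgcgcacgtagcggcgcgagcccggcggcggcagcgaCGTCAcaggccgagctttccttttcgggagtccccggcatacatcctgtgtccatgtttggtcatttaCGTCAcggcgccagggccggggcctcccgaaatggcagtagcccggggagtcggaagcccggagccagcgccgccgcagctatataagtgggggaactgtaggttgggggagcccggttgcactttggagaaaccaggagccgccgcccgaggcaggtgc
The Nab1 window is at chr9:56545392-56545691 on the plus strand and the Nab2 window at chr7:65389206-65389505 on the minus strand. In these 2 sequences capitals mark the EGR site GCGNGGGCG and the GC box GGGCGG on either strand. The marked motifs thus differ between EGR and NAB genes. A CRE half-site in Nab1 and GC boxes in Egr2 and Egr4 are left unmarked.
Nab1: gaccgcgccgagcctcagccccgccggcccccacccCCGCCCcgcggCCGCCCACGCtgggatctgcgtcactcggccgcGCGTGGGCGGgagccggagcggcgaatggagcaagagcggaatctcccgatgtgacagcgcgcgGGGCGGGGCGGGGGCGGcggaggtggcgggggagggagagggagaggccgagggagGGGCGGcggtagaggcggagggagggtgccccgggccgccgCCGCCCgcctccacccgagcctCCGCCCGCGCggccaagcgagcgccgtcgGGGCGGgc
Nab2: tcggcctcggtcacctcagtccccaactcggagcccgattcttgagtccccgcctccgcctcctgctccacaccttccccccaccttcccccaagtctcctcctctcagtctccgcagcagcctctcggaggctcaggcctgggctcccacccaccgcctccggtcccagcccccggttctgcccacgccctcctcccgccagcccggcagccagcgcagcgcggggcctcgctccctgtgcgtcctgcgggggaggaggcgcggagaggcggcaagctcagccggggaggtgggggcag

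Motifs were searched on both strands of all 33469 rat windows of this length. A CArG box was found in 1.64% of all windows, and 7 windows held 2 or more. Egr1 was 1 of these 7, with CCATATTAGG starting at position -105 and CCATATATGG at -83, counted from the annotated start. Egr2 held 1 CArG box and Egr4, Nab1 and Nab2 held none. The CRE half-site CGTCA was found in 21.2% of all windows, at 2 places in Egr1, 1 in Egr2, 2 in Egr4, 1 in Nab1 and none in Nab2. The sequence around the nearer CArG box was shared by Egr1 and Egr2. From -83 to -59, 21 of 25 bases were the same in both genes. This stretch was chosen to hold the CArG box and the CRE half-site, so much of the likeness comes from these motifs.
Egr1: CCATATATGGccatgtaCGTCAcgg
Egr2: CCATATATGGgcagcgaCGTCAcgg
Capitals again mark the CArG box and the CRE half-site, which began 17 bases after the first base of the CArG box in both genes. Of all windows, 91 (0.272%) held a CArG box and a CRE half-site, and 3 held them at this distance and orientation: Egr1, Egr2 and Dusp5, which encodes an ERK phosphatase. The distance was chosen after the sequences of Egr1 and Egr2 were seen, so this count is only a description.

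Nab1 had the most GC-rich window of the 5 genes, at 81.7% G or C, against 73.3% in Nab2, 68.0% in Egr4, 64.7% in Egr1, 59.0% in Egr2 and a median of 51.7% over all windows. It held 4 EGR sites, starting at -202, -170, -99 and +15, and 10 GC boxes. Some of these matches overlap, because the letters of an EGR site can run into those of a GC box. An EGR site was found in 4.98% of all windows and a GC box in 33.1%. Egr2 and Egr4 each had 1 GC box, and Egr1 and Nab2 had no match to either motif. The full CRE TGACGTCA, which holds CGTCA on both strands, the AP-1 site TGANTCA and the TATA box TATAAA were not found in any of the 5 windows, against 1.83%, 7.33% and 14.2% of all windows. A missing match says only that these letters are not in this window.

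**Figure D1:**
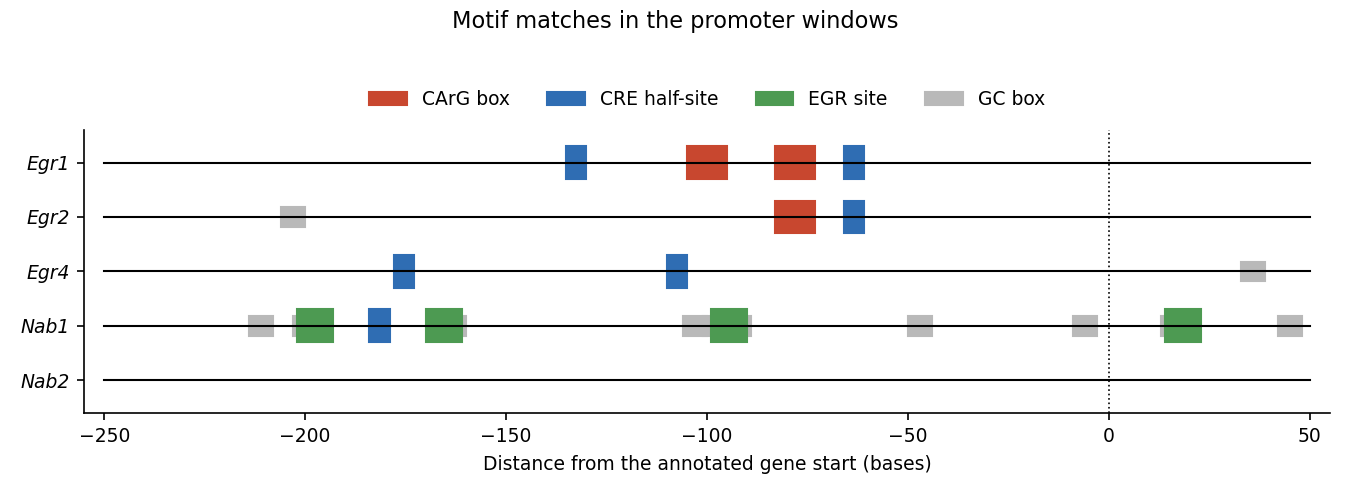
Motif matches in the promoter windows of 5 genes, with the distance from the annotated start in bases on the x axis and a coloured box for each match on either strand (grey GC boxes are drawn lower and partly behind green EGR sites). Egr1 and Egr2 have a CArG box at the same place, Nab1 has 4 EGR sites, and Nab2 has no match.

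Expression was given as 1 value per gene and sample, read as FPKM, a fragment number that is scaled to gene length and to the size of the library. Of 38490 genes, 18006 had values. The values summed to between 573023 and 582577 FPKM in DNP, 580702 and 591539 in Ctrl and 610206 and 630069 in PF samples, so the PF sums lay above all others. FPKM does not tell the read depth, so only the spread of the 3 replicates speaks for the precision of a value. Each of the 9 samples was most like a sample of its own group. All 8 MC markers checked, among them Fcer1a, Ms4a2 and Kit, were above 1 FPKM in each group, with summed levels of 2558 to 2591 FPKM in Ctrl, 2456 to 2478 in DNP and 2581 to 2610 in PF samples. Of 14 markers of T cells, B cells, macrophages, epithelium, fibroblasts and endothelium, 12 had values and 10 of these were below 1 FPKM in each group. None was at 0 in all samples of a group. Their summed level was 68.1 to 72.5 FPKM in Ctrl, 65.7 to 70.6 in DNP and 54.3 to 60.4 in PF samples. Most of it came from Pecam1, listed here as an endothelial marker. Its mean was 60.5 ± 1.60 FPKM in Ctrl, 57.4 ± 2.91 in DNP and 45.6 ± 2.44 in PF (SD, n = 3 each). The other marker above 1 FPKM was Cd3e, listed as a T cell marker, with means of 7.41, 8.46 and 8.97 FPKM in Ctrl, DNP and PF. By the limma test described below, 2 of the 8 MC markers were higher and 3 lower in DNP than in Ctrl, 2 higher and 3 lower in PF than in DNP, and 4 higher and 3 lower in PF than in Ctrl. These are 62.5%, 62.5% and 87.5% of the 8, against 29.2%, 48.8% and 57.7% of all genes tested. Of 2 markers of other cells that could be tested, 1 was lower in PF than in DNP, and 1 was higher and 1 lower in PF than in Ctrl. The part of these shifts in the changes given here was not tested. In bulk RNA, fewer cells that express a gene and less of its RNA per cell cannot be told apart.

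Among the EGR genes, Egr1 (gene ID 24330) had the highest level in DNP and PF. It measured 3.59, 4.00 and 3.35 FPKM in the Ctrl samples. The DNP samples had 158.35, 176.09 and 173.53 FPKM, and the PF samples 218.71, 220.80 and 238.23 FPKM. The 3 groups did not overlap, and every PF sample was above every DNP sample. The means of 3.65 ± 0.329, 169 ± 9.59 and 226 ± 10.7 FPKM (SD, n = 3 each) were above those of 52.3%, 97.1% and 97.6% of the 18006 genes.

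Egr3 (25148), which with Egr2 is known for restraining T cell activation, had 2.04, 2.82 and 2.64 FPKM in Ctrl, close to the level of Egr1 there. Its values in DNP were 42.00, 47.70 and 44.98 FPKM. In PF it had 6.70, 7.58 and 7.28 FPKM. All PF samples lay between the Ctrl and the DNP samples, nearer to Ctrl. The means were 2.50 ± 0.408, 44.9 ± 2.85 and 7.19 ± 0.447 FPKM (SD, n = 3 each).

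Egr2 (114090) was low throughout, with 0.12, 0.05 and 0.06 FPKM in Ctrl, 2.50, 2.28 and 2.61 in DNP and 1.44, 1.30 and 1.33 in PF. Again all PF samples lay between the other two groups. Its means of 0.0767 ± 0.0379, 2.46 ± 0.168 and 1.36 ± 0.0737 FPKM (SD, n = 3 each) made it the lowest of the 5 genes in every sample. No fold is given against Ctrl, since no Ctrl sample reached 1 FPKM and the number of reads behind these values is unknown.

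The NAB genes moved over a much smaller range. Nab1 (64824) had 17.02, 15.14 and 16.16 FPKM in Ctrl, 18.45, 17.82 and 17.50 in DNP and 17.39, 17.33 and 18.60 in PF. The Ctrl samples were the 3 lowest, while DNP and PF overlapped. Nab2 (314910) had 10.39, 10.95 and 11.15 FPKM in Ctrl, 9.25, 9.79 and 9.29 in DNP and 6.09, 6.55 and 5.69 in PF. Nab2 levels fell from Ctrl to DNP to PF with no overlap between groups. The means were 16.1 ± 0.941, 17.9 ± 0.483 and 17.8 ± 0.717 FPKM for Nab1 and 10.8 ± 0.394, 9.44 ± 0.301 and 6.11 ± 0.430 FPKM for Nab2 (SD, n = 3 each).

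The order of the levels also differed between groups. In Ctrl it was Nab1, Nab2, Egr1, Egr3 and Egr2 from the highest to the lowest, and no neighbours in this order overlapped. In DNP it became Egr1, Egr3, Nab1, Nab2 and Egr2. In PF it was Egr1, Nab1, Egr3, Nab2 and Egr2, with Egr3 (6.70 to 7.58 FPKM) just above Nab2 (5.69 to 6.55 FPKM).

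**Figure D2:**
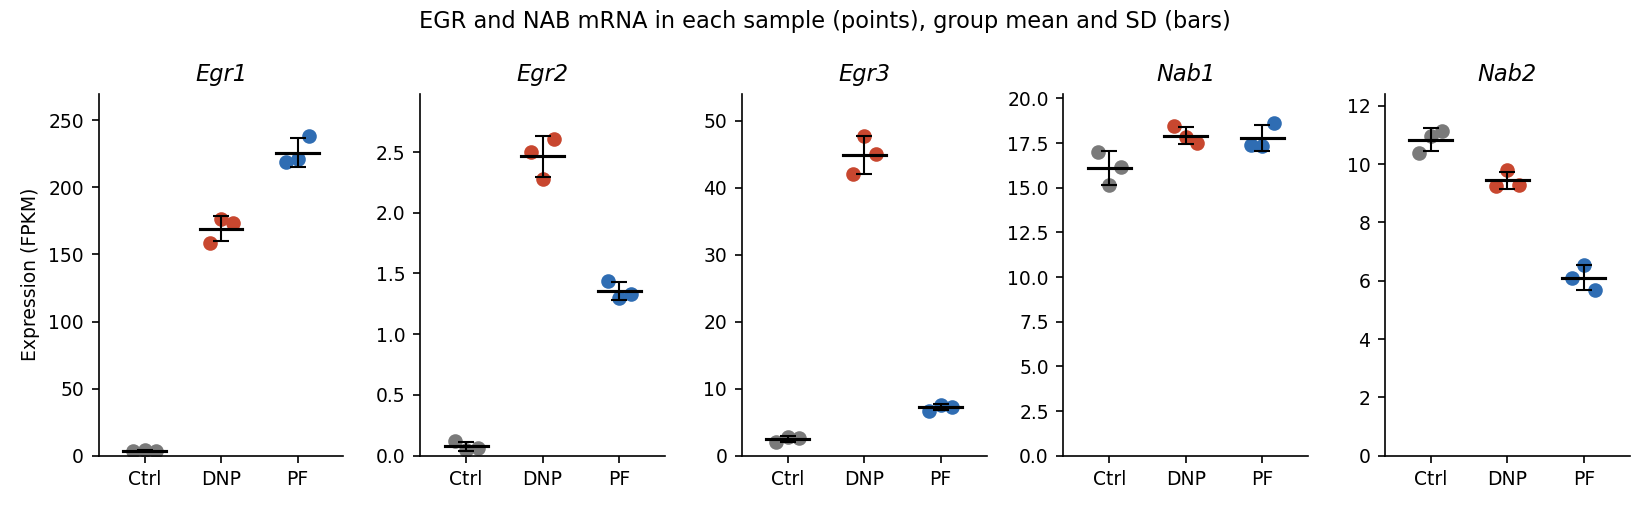
Expression of Egr1, Egr2, Egr3, Nab1 and Nab2 in FPKM (y axis, from 0, with its own scale for each gene) in the Ctrl, DNP and PF samples, where points are samples and bars are the mean and SD of 3. Egr1 is highest in PF, Egr2 and Egr3 are highest in DNP, and Nab2 is lowest in PF.

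The comparison of DNP with Ctrl shows which genes differed after IgE and antigen. Since it is not settled whether Ctrl received IgE, antigen and sensitization cannot be told apart here. The test was limma on log2(FPKM + 1), run on genes that reached 1 FPKM in 3 or more of the 6 samples compared, and p-values were adjusted over all these genes by the Benjamini-Hochberg method. Because of the added 1, low genes show a smaller log2 fold change than their FPKM ratio. Of 10392 genes tested, 29.2% had an adjusted p of at most 0.05, 14.7% higher and 14.4% lower in DNP. Of the 4 EGR and NAB genes that reached 1 FPKM in both groups, 2 were higher, 1 was lower and 1 did not pass. Egr2 reached 1 FPKM only in DNP, the group where it was high, so its test is not given. Egr1 had the highest log2 fold change of all genes tested, at 5.20 (SE 0.0631, 46.4-fold in mean FPKM, limma adjusted p = 1.87e-09). Egr3 was the third highest at 3.72 (SE 0.0905, 17.96-fold, limma adjusted p = 1.55e-07). Egr2 differed by 1.69 on the log2 scale, and by 3.88 with a pseudocount of 0.1 in place of 1, which is a description only. Nab1 and Nab2 differed little between DNP and Ctrl. Nab1 had a log2 fold change of 0.15 (95% interval 0.02 to 0.27) that did not pass after adjustment (limma adjusted p = 0.0735), although its groups did not overlap. Nab2 was lower in DNP by 1.15-fold, with a log2 fold change of -0.18 (95% interval -0.30 to -0.06, limma adjusted p = 0.0381). This call was lost in 5 of 6 fits that left out 1 sample (adjusted p between 0.0563 and 0.111) and was kept only without Ctrl replicate 1. It was also lost with the filter on low values removed, with samples scaled to the mean of the sums and under a replicate block. Groups did not overlap for 45.8% of all genes tested. For the 4 genes the two-sided exact permutation p was 0.1, the smallest that 3 samples against 3 can give.

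The comparison of PF with DNP shows what differed with PF pretreatment, within the doubt on PF itself and on the antigen times. It uses the same DNP samples as the comparison above. Of 10329 genes tested, 48.8% passed, 18.1% higher and 30.7% lower in PF. The direction of the whole set depended on the scaling: of the genes that passed, 37.1% were higher with the values as deposited, 51.5% after scaling by median ratios and 16.8% after scaling to the mean of the sums, while the median over all genes tested moved from -0.04 to 0.02 and -0.13 on the log2 scale. Of the 5 EGR and NAB genes tested, 1 was higher in PF, 3 were lower and 1 did not pass. The 4 that passed kept their direction and their call under both scalings. Egr3 had the second lowest log2 fold change of all genes tested, at -2.49 (SE 0.0618, 6.25-fold lower, limma adjusted p = 6.02e-08). Egr2 was 1.82-fold lower (log2 fold change -0.55, SE 0.0841, limma adjusted p = 7.01e-04). Egr1 was instead 1.33-fold higher (0.41, SE 0.0494, limma adjusted p = 1.79e-04), and its log2 fold change was 0.48 and 0.32 under the median-ratio and mean-of-sums scalings. Nab2 was 1.55-fold lower (-0.56, SE 0.0655, limma adjusted p = 1.67e-04). Nab1 did not pass, at -0.01 with a 95% interval from -0.12 to 0.10 (limma adjusted p = 0.856). It was at 0.05 and -0.11 under the median-ratio and mean-of-sums scalings (adjusted p = 0.405 and 0.14). With the values as deposited its groups overlapped (two-sided exact permutation p = 0.7), while those of the other 4 genes did not (p = 0.1 each by the same exact test). Groups did not overlap for 57.6% of all genes tested.

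PF replicate 1 is the only PF sample to which both label fields give 4 h of antigen. With it alone as the PF group, and assuming that it varies as the other samples do, the log2 fold changes from DNP were 0.37 for Egr1 (limma adjusted p = 0.00667), -2.57 for Egr3 (2.03e-05), -0.50 for Egr2 (0.0239) and -0.56 for Nab2 (0.00356). Each was close to the value from all 3 PF samples.

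PF was also compared with Ctrl. This comparison shares its samples with the other 2, so its values stand beside them and are no further evidence. Of 10361 genes tested, 57.7% passed, 23.1% higher and 34.6% lower in PF. Of the genes that passed, 40.0% were higher, against 51.1% and 26.7% under the median-ratio and mean-of-sums scalings. Of the 4 genes that reached 1 FPKM in both groups, 2 were higher, 1 was lower and 1 did not pass. Egr2 reached 1 FPKM only in PF, and its test is not given. Egr1 had the highest log2 fold change of all genes tested, at 5.61 (SE 0.0612, 62.0-fold, limma adjusted p = 5.33e-10). Egr3 stayed 2.87-fold higher than in Ctrl (1.23, SE 0.0985, limma adjusted p = 1.89e-05). Egr2 differed by 1.13, or by 3.06 with a pseudocount of 0.1, again a description only. Nab2 was 1.77-fold lower (-0.74, SE 0.0664, limma adjusted p = 3.52e-05). Nab1 did not pass at 0.13 (95% interval 0.00 to 0.27, limma adjusted p = 0.0756), but did after scaling by median ratios (0.20, adjusted p = 0.0158). With scaling to the mean of the sums it was at 0.06 (adjusted p = 0.467). Groups did not overlap for any of the 4 genes (two-sided exact permutation p = 0.1 each), nor for 64.8% of all genes tested.

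**Figure D3:**
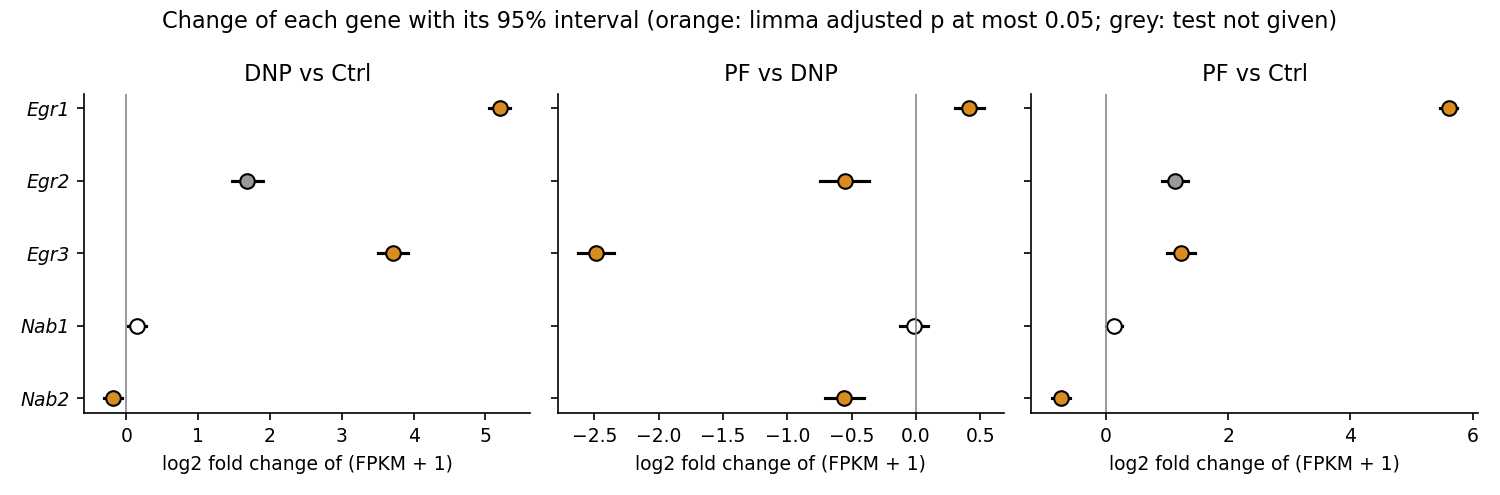
Log2 fold change of (FPKM + 1) with its 95% interval (x axis, a separate scale in each panel) for the 5 genes with values, in DNP vs Ctrl, PF vs DNP and PF vs Ctrl; orange points have a limma adjusted p of at most 0.05, and grey marks Egr2 against Ctrl, whose test is not given. The interval drawn at the grey points is not read as a test. Egr1 is the only gene to the right of 0 in PF vs DNP, and Nab1 is an open point in all 3 panels.

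The 3 EGR genes differed in how much of the rise from Ctrl to DNP was seen in the PF samples. Taking the rise from the Ctrl mean to the DNP mean as 100%, the PF samples had 130%, 131% and 142% of the Egr1 rise. For Egr2 they had 57.1%, 51.3% and 52.5% of it, and for Egr3 9.91%, 12.0% and 11.3%. The means were 134 ± 6.47%, 53.6 ± 3.09% and 11.1 ± 1.06% (SD, n = 3), so that Egr1 lay above its DNP level, Egr2 about midway and Egr3 near its Ctrl level.

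Ratios between genes within a sample do not depend on the scaling of samples, apart from the pseudocount. All 10 pairs of the 5 genes were compared as differences of log2(FPKM + 1). From Ctrl to DNP the ratio differed without overlap between groups in 10 of 10 pairs, and from DNP to PF and from Ctrl to PF in 9 of 10 (two-sided exact permutation p = 0.1 each, adjusted over the 10 pairs 0.1, 0.111 and 0.111). Over all pairs of genes tested, 45.2%, 58.4% and 64.1% did not overlap. With a pseudocount of 0.1 the counts were 9, 9 and 10 of 10. The counts against Ctrl include the pairs with Egr2, which reached 1 FPKM only in DNP and PF, and are a description only. None of these can reach an adjusted p of 0.05 with 3 samples a group. The log2 ratio of Egr1 to Egr3 was 1.48 higher in DNP than in Ctrl, and a further 2.90 higher in PF. With a pseudocount of 0.1 these values were 1.38 and 3.04. Ratios with Egr2 against Ctrl depended on the pseudocount, since Egr2 had at most 0.12 FPKM there. The log2 ratio of Egr1 to Egr2 was 3.51 higher in DNP than in Ctrl with a pseudocount of 1 and 1.62 higher with 0.1. That of Egr2 to Egr3 changed by -2.03 from Ctrl to DNP with a pseudocount of 1, but by -0.25 with overlapping groups with 0.1. Between Ctrl and PF it overlapped with a pseudocount of 1 (-0.10, two-sided exact permutation p = 0.6) and was 1.57 higher in PF without overlap with 0.1. No direction can be read for this pair against Ctrl. From DNP to PF, Egr2 gained on Egr3 by 1.93, or 1.81 with a pseudocount of 0.1, and Egr1 gained on Egr2 by 0.97, or 1.23. The ratio of Egr2 to Nab2 overlapped between DNP and PF, with a change of 0.00 (two-sided exact permutation p = 0.9), or of -0.19 with a pseudocount of 0.1 (p = 0.3 by the same exact test). The log2 ratio of Nab1 to Nab2 was 0.33 and then 0.54 higher.

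FPKM is a value per length, so the genes of a family can be summed within a sample. Egr1, Egr2 and Egr3 summed to 5.75 to 6.87 FPKM in Ctrl, 202.85 to 226.07 in DNP and 226.85 to 246.84 in PF samples. The DNP and PF sums met almost without a gap, although the 3 genes moved in both directions. Nab1 and Nab2 summed to 26.09 to 27.41 FPKM in Ctrl, 26.79 to 27.70 in DNP and 23.48 to 24.29 in PF samples. The NAB sum overlapped between Ctrl and DNP (two-sided exact permutation p = 0.5) and was lower in every PF sample than in any other. NAB mRNA per EGR mRNA was 4.36 ± 0.503 in Ctrl, 0.127 ± 0.00862 in DNP and 0.102 ± 0.00309 in PF (SD, n = 3 each), with no overlap between groups (two-sided exact permutation p = 0.1). Over all pairs of genes tested, ratios did not overlap for 45.2% in DNP vs Ctrl, 58.4% in PF vs DNP and 64.1% in PF vs Ctrl. The sums and ratios are levels of mRNA, and proteins were not part of these data.

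The makeup of both sums differed between groups. Egr1 made up 58.7 ± 3.55% of the EGR sum in Ctrl, 78.1 ± 0.301% in DNP and 96.4 ± 0.196% in PF (SD, n = 3 each). Egr3 made up 40.1 ± 4.17%, 20.7 ± 0.379% and 3.07 ± 0.201%. Egr2 made up 1.27 ± 0.721%, 1.14 ± 0.117% and 0.580 ± 0.0495%, and its share overlapped between Ctrl and DNP (two-sided exact permutation p = 1.0). Nab2 made up 40.2 ± 2.10% of the NAB sum in Ctrl, 34.5 ± 1.04% in DNP and 25.6 ± 2.02% in PF. Apart from Egr2 between Ctrl and DNP, none of these shares overlapped between groups (two-sided exact permutation p = 0.1 each). As given above, the ratios of 45.2% to 64.1% of all pairs of genes tested did not overlap either. Shares of the same sum depend on one another and restate the changes of the single genes. In FPKM, Egr1 stood 1.48 ± 0.252 times as high as Egr3 in Ctrl, 3.77 ± 0.0832 times in DNP and 31.5 ± 2.05 times in PF.

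**Figure D4:**
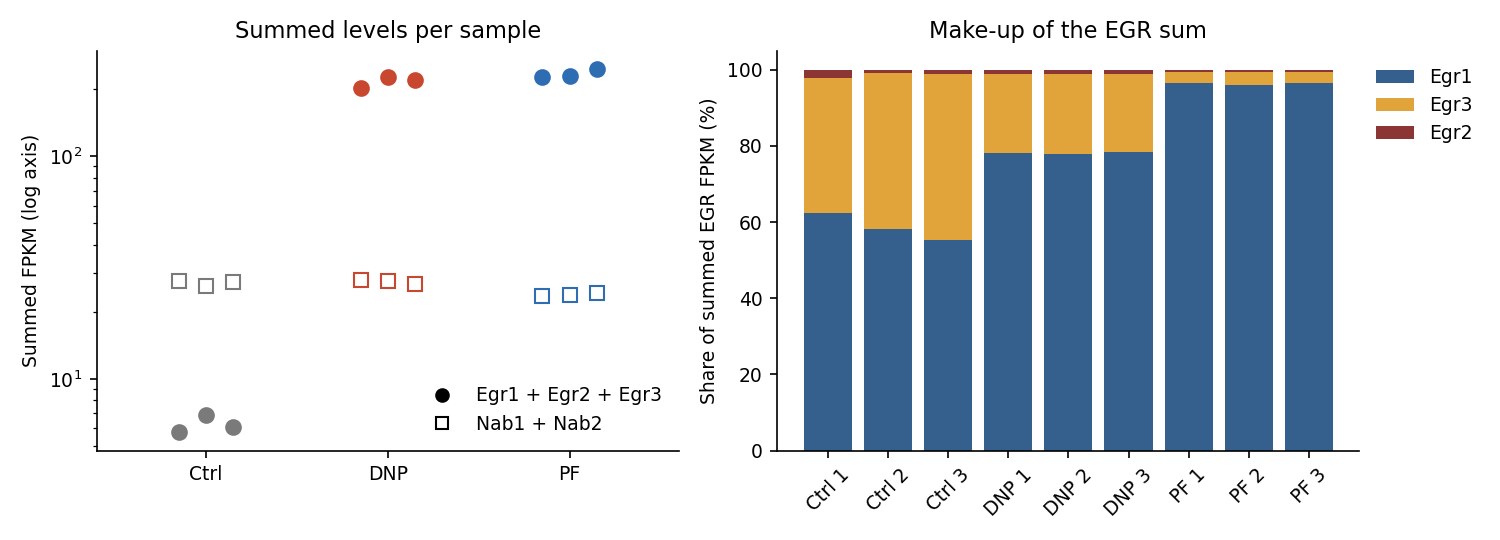
Left, summed FPKM per sample on a log axis for the EGR genes (filled circles) and the NAB genes (open squares) in Ctrl, DNP and PF. Right, the share of the EGR sum in percent made up by Egr1, Egr3 and Egr2 in each of the 9 samples, where Egr3 shrinks from 40.1% on average in Ctrl to 3.07% in PF.

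For each gene, the 3 genes with the nearest profile were found among 10504 genes. The measure was the root mean square (RMS) difference over the 9 samples of log2(FPKM + 1), each gene less its own Ctrl mean. It is a description of likeness in these samples only. Egr1 had 1 near neighbour, Fosb, which encodes an AP-1 subunit, at 0.605. Fosb had mean levels of 2.09 FPKM in Ctrl, 68.6 in DNP and 86.7 in PF. The next genes were far off, Egr3 at 2.67 and Fos, another AP-1 subunit, at 2.88. Fos had 13.0, 33.6 and 77.4 FPKM, so that it was higher in PF than in DNP, as Egr1 was.

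On this scale Egr2 had close neighbours. The nearest was Atf3, a stress-induced transcription factor, at 0.0811, with 17.9, 58.3 and 37.7 FPKM. Lif, a cytokine of the IL-6 family, was at 0.157 with 112, 307 and 234 FPKM. Nr4a2, an orphan nuclear receptor of the immediate early class, was at 0.193 with 6.06, 23.1 and 17.2 FPKM. These genes were expressed at far higher levels than Egr2, and the pseudocount of 1 lowers the log2 change of Egr2 more than theirs. Egr2 reached 1 FPKM only in DNP and PF. Its log2 difference between DNP and Ctrl was 1.69 with a pseudocount of 1 and 3.88 with 0.1. The closeness therefore depends on the pseudocount, and the search was not repeated with another.

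The nearest genes of Egr3 were a pair of cytokines and a nuclear receptor. Il3, which encodes a growth factor of MCs and basophils, was at 1.03 with 4.18, 20.1 and 7.33 FPKM. Nr4a3 was at 1.06 with 0.167, 3.83 and 0.660 FPKM, and Il4, the type 2 cytokine, at 1.11 with 2.33, 12.3 and 3.49 FPKM. Like Egr3, each had its highest mean in DNP and a PF mean nearer to Ctrl. On the log2(FPKM + 1) scale their changes were smaller than those of Egr3. Nr4a3 was below 1 FPKM in every Ctrl and PF sample, so the added 1 lowers its log2 change more than that of the others. The nearest genes of Nab2 were Arfgap3, which acts in Golgi transport (39.2, 34.6 and 24.0 FPKM), the lysosomal enzyme gene Naglu (44.8, 39.1 and 25.9 FPKM) and Zfp17 (2.97, 2.45 and 1.30 FPKM), at 0.0476 to 0.0506. Nab1 changed so little that Efr3a, Xpot and Cbfb, at 0.0264 to 0.0337, share with it mainly a flat profile.

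**Figure D5:**
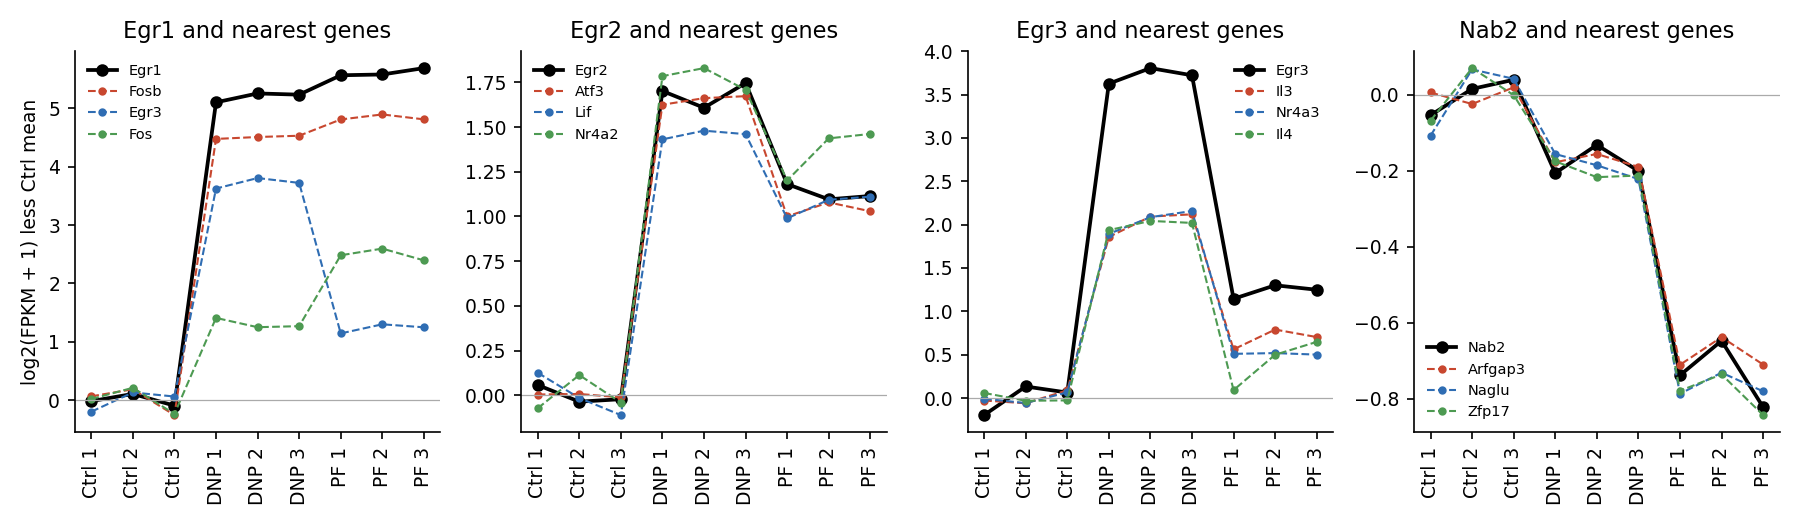
Log2(FPKM + 1) less the Ctrl mean (y axis, a separate scale in each panel) in the 9 samples for Egr1, Egr2, Egr3 and Nab2 (black) and the 3 genes nearest to each by RMS difference (coloured, dashed). Fosb follows Egr1 upward from DNP to PF, and Il3, Nr4a3 and Il4 drop from DNP to PF with Egr3.

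Genes upstream of the EGR promoters were looked at in a list of 18 kinases and transcription factors of the ERK, SRF and CREB routes, all of which passed the filter. In DNP vs Ctrl 4 were higher and 1 was lower, with a median log2 fold change of 0.01 against -0.01 for all genes. In PF vs DNP 2 were higher and 5 lower (median -0.02 against -0.04). In PF vs Ctrl 3 were higher and 4 lower (median -0.04 against -0.05). These were 27.8%, 38.9% and 38.9% of the 18, below the 29.2%, 48.8% and 57.7% of all genes tested. Creb1, which encodes CREB, had a mean of 12.9 ± 0.568 FPKM in Ctrl, 18.5 ± 1.22 in DNP and 10.9 ± 0.726 in PF (SD, n = 3 each). It rose by 0.49 in DNP (limma adjusted p = 9.02e-04) and was lower by 0.71 in PF than in DNP (log2 fold change -0.71, limma adjusted p = 3.93e-05). Elk3, a ternary complex factor that partners SRF, had 41.4 ± 2.62, 55.6 ± 1.60 and 43.1 ± 1.86 FPKM, higher in DNP (0.42, limma adjusted p = 8.07e-04) and lower in PF than in DNP (-0.36, limma adjusted p = 1.73e-04). Its relative Elk4 went the other way in DNP, with 15.6 ± 1.02, 12.7 ± 0.908 and 14.8 ± 0.845 FPKM (DNP vs Ctrl -0.28, limma adjusted p = 0.0165). Without DNP replicate 3 that call was lost (adjusted p = 0.0553). Srf itself had 7.10 ± 0.712, 8.75 ± 0.410 and 9.14 ± 0.944 FPKM, with log2 fold changes of 0.27 in DNP vs Ctrl (limma adjusted p = 0.0298) and 0.32 in PF vs Ctrl (limma adjusted p = 0.0153). The latter call was lost in 3 of 6 fits without 1 sample. Rps6ka4, which encodes a nuclear kinase downstream of ERK and p38, was higher than in Ctrl in DNP (0.32, limma adjusted p = 0.00956) and in PF (0.41, limma adjusted p = 0.00119).

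The NuRD complex, a partner of NAB proteins, was covered by 13 subunits. In DNP vs Ctrl 1 was higher and 3 were lower (median log2 fold change 0.00). In PF vs DNP 5 were higher and 1 lower (median 0.07), and in PF vs Ctrl 4 were higher and 1 lower (median 0.06). These were 30.8%, 46.2% and 38.5% of the 13, against 29.2%, 48.8% and 57.7% of all genes tested. The medians over all genes tested were -0.01, -0.04 and -0.05. Chd4, the ATPase that NAB2 binds, passed in no comparison, with 50.5 ± 2.40 FPKM in Ctrl, 51.6 ± 1.34 in DNP and 47.6 ± 3.10 in PF (SD, n = 3 each). Its paralog Chd3 was lower in DNP than in Ctrl (-0.20, limma adjusted p = 0.00819) and in PF than in Ctrl (-0.32, limma adjusted p = 3.64e-04), with 27.9 ± 0.647, 24.2 ± 0.675 and 22.1 ± 0.647 FPKM. Mta1 was the subunit that rose in DNP, from 33.4 ± 0.278 to 42.0 ± 0.735 FPKM (0.32, limma adjusted p = 4.95e-04), and had 44.7 ± 1.22 FPKM in PF. The deacetylase gene Hdac2 had 18.8 ± 1.30 FPKM in Ctrl and 19.2 ± 1.34 in DNP and rose to 24.8 ± 0.381 FPKM in PF (PF vs DNP 0.36, limma adjusted p = 7.12e-04).

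A list of 29 genes reported as EGR targets in other cells was taken as the downstream side. Of these, 28 had values and 17 passed the filter. In DNP vs Ctrl 4 were higher and 4 lower (median log2 fold change 0.01). In PF vs DNP 5 were higher and 6 lower (median -0.08), and in PF vs Ctrl 7 were higher and 6 lower (median 0.00). These were 47.1%, 64.7% and 76.5% of the 17, against 29.2%, 48.8% and 57.7% of all genes tested. The medians over all genes tested were -0.01, -0.04 and -0.05. Il4 had 2.33 ± 0.118 FPKM in Ctrl, 12.3 ± 0.514 in DNP and 3.49 ± 0.856 in PF (SD, n = 3 each). It rose by 2.00 in DNP (limma adjusted p = 9.82e-07) and was lower in PF than in DNP, at -1.59 (limma adjusted p = 1.68e-05). The related cytokine gene Il13 had 4.16 ± 0.364, 12.6 ± 1.58 and 5.50 ± 0.386 FPKM (DNP vs Ctrl 1.40, limma adjusted p = 5.90e-05; PF vs DNP -1.07, limma adjusted p = 2.23e-05). Both had the order of Egr2 and Egr3 across groups, with DNP highest and PF between DNP and Ctrl. Il4 is also among the nearest genes of Egr3 by these same values. Whether EGR proteins act on the genes of this list in these cells was not tested.

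Other genes of this list had other orders. Tnf, an inflammatory cytokine, had 6.37 ± 1.17, 8.29 ± 0.884 and 17.1 ± 3.12 FPKM. Its difference between DNP and Ctrl did not pass (0.34, limma adjusted p = 0.0606), and it was higher in PF than in DNP (0.95, limma adjusted p = 2.14e-04), the direction of Egr1. Gdf15, a stress cytokine, was lowest in DNP, with 31.1 ± 2.46, 16.4 ± 2.67 and 22.05 ± 0.243 FPKM (DNP vs Ctrl -0.89, limma adjusted p = 6.91e-04). Cdkn1a, the cell cycle inhibitor p21, fell in both steps with 131 ± 2.56, 104 ± 4.70 and 72.4 ± 5.15 FPKM (DNP vs Ctrl -0.32, limma adjusted p = 8.57e-04, and PF vs DNP -0.52, limma adjusted p = 7.79e-05), the order of Nab2. Cd44, an adhesion receptor gene, rose in DNP by 0.53 (limma adjusted p = 0.00227), from 3.97 ± 0.251 to 6.17 ± 0.542 FPKM, and had 5.76 ± 0.313 FPKM in PF. Faslg, the Fas ligand gene, had 1.92 ± 0.112 FPKM in Ctrl and 1.22 ± 0.293 in DNP (-0.41, limma adjusted p = 0.0269), a call lost in 5 of 6 fits without 1 sample.

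Of 6 zinc finger factors that bind GC boxes, some of which compete with EGR proteins for such sites, 5 passed the filter. In DNP vs Ctrl 3 of them were lower, in PF vs DNP 1 was lower and in PF vs Ctrl 2 were lower. None was higher. These were 60.0%, 20.0% and 40.0% of the 5, against 29.2%, 48.8% and 57.7% of all genes tested. The 5 had median log2 fold changes of -0.19, 0.11 and -0.08, against -0.01, -0.04 and -0.05 for all genes tested. The median and the single call thus differ in sign in PF vs DNP. Sp2, a member of the Sp family, had 32.1 ± 1.12 FPKM in Ctrl, 27.97 ± 0.537 in DNP and 20.1 ± 0.921 in PF (SD, n = 3 each). It was lower in DNP than in Ctrl (-0.19, limma adjusted p = 0.0102) and lower in PF than in DNP (-0.46, limma adjusted p = 6.34e-05). Sp1, the best known GC box factor, had 31.1 ± 1.58, 26.7 ± 0.621 and 24.6 ± 1.10 FPKM and was lower in DNP (-0.21, limma adjusted p = 0.0111).

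Dusp5, the other gene with the CArG and CRE spacing of Egr1 and Egr2, was looked at after its sequence match was seen. It had 0.57, 0.31 and 0.33 FPKM in Ctrl, 0.53, 0.93 and 1.01 in DNP and 1.13, 1.01 and 1.19 in PF. Ctrl and DNP overlapped. The 3 PF samples were above all Ctrl samples and met the DNP samples at 1.01 FPKM. No test is given, since no Ctrl sample reached 1 FPKM and the gene was picked for its sequence.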

How the data were processed

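RNA-seq was analysed in 9 samples of RBL-2H3 cells, 3 each labelled Ctrl, IgE/DNP and PF, grouped by their titles. By the study's methods reads came from a BGISEQ-500 sequencer, and the authors used SOAPnuke for filtering, HISAT2 2.0.4 for mapping and RSEM 1.2.12 with Bowtie2 2.2.5 for quantification. The processing notes name the rn6 build. The labels name Illumina library protocols instead, and the annotation is not given in the sources used here. The authors deposited 1 value per gene and sample, whose heading names no unit and which was read as FPKM from its decimals and totals. Because FPKM holds no counts, no count test was run and no counting interval can be given. Of 38490 listed genes, 20484 have no value. Samples list genes in 5 orders and were joined by gene identifier.

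Values were tested as log2(FPKM + 1) by limma 3.58.1 (R 4.3.3, functions lmFit and eBayes, the latter with a trend) on the 6 samples of each comparison. Genes had to reach 1 FPKM in 3 or more of these. Adjustment over genes was by Benjamini-Hochberg, with 0.05 as the threshold. Single values had two-sided exact permutation tests (scipy 1.17.1). The limma test was also run on simulated data with independent noise and few changed genes. That setting differs from these data, so no conclusion is drawn from it. Genes named are the 6 genes, of each list up to 3 genes a direction and comparison with the largest log2 fold change among those that passed, and the 3 nearest genes of each gene with values. Chd4 and Dusp5 were named after their values or sequence were seen. The members and lists were chosen with earlier results of these data known. Promoter windows come from RefSeq on GRCr8, while the values were made on rn6. No window was given for Egr3. The study tests a c-Fos/AP-1 inhibitor, but no sample here carries its name. Alternatives were a pseudocount of 0.1, no filter, a fit of all 9 samples, a replicate block, 2 other scalings, eBayes without trend, each sample left out in turn, PF replicate 1 alone and a threshold of 0.01.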

Additional observations from a re-analysis of the deposited data

How the results depend on the processing

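Egr1 and Egr3 in all 3 comparisons, Egr2 in PF vs DNP, and Nab2 in PF vs DNP and PF vs Ctrl, kept their direction and their call in every alternative run. Nab2 in DNP vs Ctrl lost its limma call with no filter (log2 fold change -0.18, adjusted p = 0.0631), with the replicate block (-0.18, 0.0622), with scaling to the mean of the sums (-0.16, 0.0622) and at a threshold of 0.01 (-0.18, 0.0381). Without 1 sample it ranged from -0.21 to -0.16. Nab1 reversed in PF vs DNP with median ratios (0.049, adjusted p = 0.405) and ranged from -0.043 to 0.0081 without 1 sample, where it was 0.0081 without DNP replicate 1, 0.0027 without PF replicate 1 and 0.005 without PF replicate 2. Nab1 gained a call in DNP vs Ctrl without Ctrl replicate 1 (0.19, limma adjusted p = 0.0451, range 0.11 to 0.19 without 1 sample). In PF vs Ctrl it gained one with all 9 samples (0.13, 0.0454), with median ratios (0.20, 0.0158) and without Ctrl replicate 1 (0.17, 0.0476, range 0.094 to 0.17). The cause was not tested. At a threshold of 0.01, 1469 genes passed in DNP vs Ctrl and 16 genes of the lists. With PF replicate 1 alone, 20 genes of the lists passed in PF vs DNP. Whether the labels' replicate numbers pair the samples differed by comparison. In DNP vs Ctrl 2 of 6 samples correlated best with their own number, and in PF vs DNP 0 of 6 did. The correlation of deviations of same-numbered samples ran from -0.0619 to 0.0445 in DNP vs Ctrl and from -0.0730 to 0.0101 in PF vs DNP. In PF vs Ctrl 6 of 6 samples correlated best with their own number, at 0.0795 to 0.182. With the replicate block 2697, 4675 and 6009 genes passed, and Nab2 in DNP vs Ctrl was the only one of the 5 genes whose call changed. Low FPKM limits Egr2 and Dusp5 most, since depth is unknown.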
